A study of Homo sapiens with 27 samples.

Results

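SHP77 is an established human cell line of small cell lung cancer. The control cells of the series were sequenced as 2 kinds of library, total RNA and poly(A) RNA, and these libraries are described here as the baseline transcriptome of the line. They number 5 of the 27 samples of the series and were chosen by their labels alone, with no measured value used. The group shGFP (n = 2) was made by lentiviral infection with an shRNA against GFP, which is not a gene of these cells, followed by puromycin at 3 µg/ml for 3 days or longer. The group si-control (n = 3) was made by transfection of a control siRNA with RNAiMAX and was harvested after 72 hours. For shGFP, 1 µg of RNA went into the TruSeq stranded total RNA kit, and for si-control 500 ng went into the TruSeq RNA kit V2, whose libraries are labelled polyA RNA. Both groups share the line, the Trizol and RNeasy column extraction with DNase, and paired reads of 150 bases. In the series the controls serve knockdowns of the circular RNA circRMST and of SOX2 and NKX2-1, and no knockdown or ChIP-seq sample was used here.

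Virus or transfection, puromycin, kit, strandedness, RNA input and deposited table all differ between the groups, so that their parts in any difference below cannot be told apart. No test was therefore made between the kinds. Each difference is given by the value in every library, by the spread within a kind and by whether the libraries of the kinds overlap. The series text speaks of biological replicates, 2 for each shRNA and siRNA, and does not say whether they were separate cultures.

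A eukaryotic mRNA usually ends in a poly(A) tail, and a poly(A) kit captures RNA by that tail with oligo(dT). The mRNAs of the replication-dependent histones are the classic exception: their 3′ end is a stem-loop that is bound by SLBP, the stem-loop binding protein. Spliceosomal snRNAs, most snoRNAs and scaRNAs, the 7SL RNA of the signal recognition particle and 7SK RNA also lack a stable tail, and mitochondrial transcripts carry short tails or none. A total RNA kit keeps tailed and untailed RNA alike after most ribosomal RNA is removed, and it also keeps unspliced nuclear RNA.

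Recovered depth was 46.9 and 51.01 M reads (1 M is 1000000) on human genes in the shGFP libraries and 15.5 to 17.9 M in the si-control libraries. A single gene, MT-RNR2, the large ribosomal RNA of the mitochondrion, took 40.5% and 41.1% of the shGFP reads and 0.763% to 0.7802% of the si-control reads. Every level below is therefore in CPM, the counts per 1000000 reads outside MT-RNR2, and setting that gene aside left 27.9 and 30.03 M reads in shGFP and 15.4 to 17.7 M in si-control. A CPM is a share of reads, so levels are compared for 1 gene between libraries, and between genes only per length. A gene at 0 in all si-control libraries could have had up to 3 reads over the group, or 0.0594 CPM, a limit that covers counting error only.

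Most RNA classes that lack a stable tail differed more between the kinds than the other classes did. The small mitochondrial ribosomal RNA MT-RNR1 held 3.67 and 3.74% of the shGFP reads and 0.108, 0.109 and 0.112% of the si-control reads, a 33.9-fold difference of the means. Replication-dependent histones held 0.528 and 0.497% in shGFP and 0.0286, 0.0279 and 0.0275% in si-control, 18.3-fold apart. Beside these, the sum of all 7SL genes and their copies was 3133 and 3059 CPM in shGFP and 43.3, 48.9 and 57.6 CPM in si-control (61.9-fold). No library of a kind reached the range of the other kind in any of these 3 classes. The sum of mitochondrial tRNAs was an exception, at 60.2 and 70.6 CPM in shGFP and 78.8, 72.9 and 74.4 CPM in si-control (0.867-fold). Nearly all of the si-control sum came from MT-TP, which is described below. In contrast, 11 tRNA genes with 41.7 CPM in sum were read only in shGFP, so the sum does not stand for the single genes. Only 3 of the 13 mitochondrial tRNA genes are listed for si-control. A gene that a table does not list adds nothing to the sums of that kind, here and below.

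Small nuclear RNAs were also higher in total RNA. The snoRNA and scaRNA sum was 1272 and 1337 CPM in total RNA against 41.6, 43.98 and 42.6 CPM in poly(A) RNA, 30.5-fold. For snRNAs the sums were 189 and 208 CPM against 5.06, 4.398 and 4.62 CPM, 42.4-fold. Copies of 7SK came to 144 and 145 CPM against 6.496, 4.004 and 5.27 CPM. All of these RNAs are short, the columns and kits used were not made for small RNA, and their many near-identical copies make the level of any 1 gene uncertain.

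Classes of mostly tailed RNA differed far less, and so did mitochondrial mRNAs, whose tails are short or absent. Long non-coding RNAs held 1.49 and 1.54% of shGFP reads and 0.902, 0.906 and 0.907% of si-control reads, 1.67-fold higher in total RNA, and pseudogenes were 1.31-fold higher. In the other direction, mitochondrial mRNAs held 6.45 and 7.19% and 9.44, 9.13 and 9.39%, and cytosolic ribosomal protein mRNAs 3.301 and 3.12% and 4.18, 4.21 and 4.23%. The remaining protein-coding genes held 81.97% ± 0.473 (SD, n = 2) in total RNA and 84.04% ± 0.1595 (SD, n = 3) in poly(A) RNA.

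**Figure D1:**
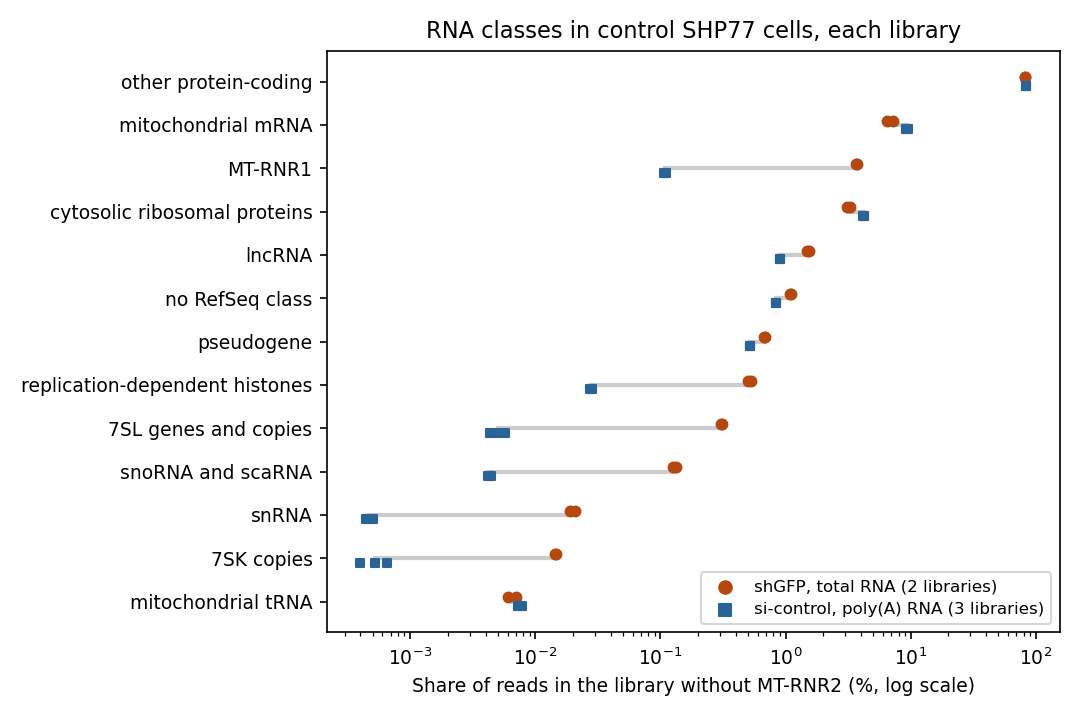
Share of reads without MT-RNR2 (horizontal axis, percent, log scale) for 13 RNA classes, with 1 point per library (circles, 2 shGFP total RNA libraries; squares, 3 si-control poly(A) RNA libraries) and a grey bar between the means of the kinds. The longest bars belong to 7SL, snRNA, MT-RNR1, snoRNA and scaRNA, 7SK copies and replication-dependent histones, all higher in total RNA.

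Across single genes, 31767 genes were listed for both kinds and 15409 of them had a mean over both kinds of at least 1 CPM, and these were compared. The log2 ratio is log2 of the shGFP mean plus 0.5 CPM over the si-control mean plus 0.5 CPM, which understates the difference of low genes. A gene is counted as higher in a kind where the means are at least 2-fold apart on that scale and the libraries of the kinds do not overlap. By this rule 2852 genes (18.5%) were higher in total RNA and 3195 (20.7%) were higher in poly(A) RNA, and each list below is to be read against these shares. Below, values on either side of the word against are those of shGFP replicates 1 and 2 and of si-control replicates 1, 2 and 3, and a signed value in brackets is the log2 ratio. The middle of all compared genes lay at 0.04, with quartiles of -0.81 and 0.77.

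Differences of this size were rare between replicates. Between the shGFP libraries 0.376% of the compared genes were 2-fold apart, and between pairs of si-control libraries 0.136% to 0.201%. Across compared genes, log2 levels of the kinds correlated with a Pearson r of 0.85, while the lowest r between replicates was 0.994; genes are not independent replicates, and no p is given. The spread of counts between replicates, as chi-square per degree of freedom, came to 5.33 for shGFP and 1.51 to 1.55 for si-control, so no library was a copy of another.

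**Figure D2:**
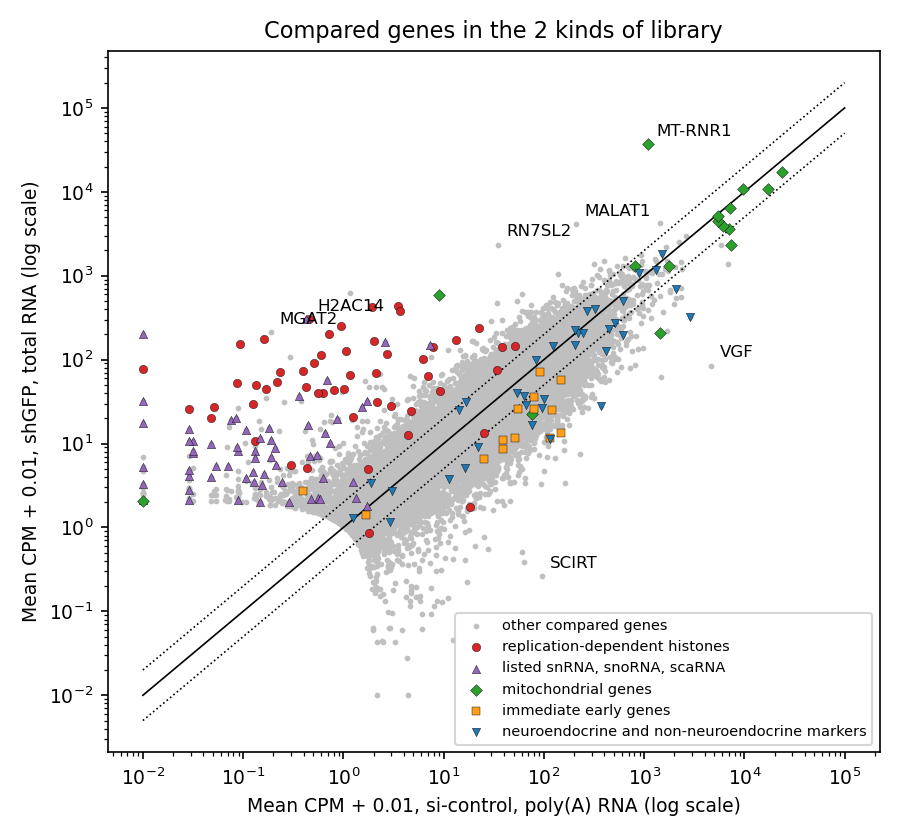
Mean CPM of each compared gene with a symbol in the si-control poly(A) RNA libraries (horizontal, log scale) against the shGFP total RNA libraries (vertical, log scale), with 0.01 CPM added. The solid line marks equal levels and the dotted lines a 2-fold difference. Most replication-dependent histones and small nuclear RNAs lie above the lines, and most immediate early genes below. Among these histones, H4C9 lies below the lines.

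Both kinds of library carried the neuroendocrine identity of the line. All 10 of the defining neuroendocrine markers stood at 1 CPM or more in both kinds, with summed levels of 2493 and 2720.5 CPM in shGFP and 3605 to 3639 CPM in si-control. SOX2, a stem and lineage factor, was at 69.7 and 78.2 CPM in total RNA and 54.8, 53.3 and 50.04 CPM in poly(A) RNA. NKX2-1, a lung lineage factor, was at 49.5 and 52.1 CPM in the shGFP libraries and 101, 109 and 99.03 CPM in the si-control libraries, a log2 ratio of -1.01 that sits on the 2-fold line: with protein-coding reads as the denominator it was -0.97, without shGFP replicate 1 -0.98 and without si-control replicate 2 -0.97.

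Factors of some other small cell subtypes were near 0. NEUROD1 was at 0.6098 and 0.433 CPM in the shGFP libraries and 0, 0 and 0.0651 CPM in the si-control libraries. POU2F3, the tuft cell factor, had 0.861 and 0.3995 CPM in total RNA and is not listed in the si-control table. YAP1, the effector of the Hippo pathway, had 1.11 and 0.633 CPM in total RNA and no read in poly(A) RNA. Such low levels were common in total RNA. Protein-coding genes that si-control lacked, either without a read or without a row in its table, numbered 2373 (808 of them have a row in both tables), of which 81.4% and 83.8% were read in shGFP replicates 1 and 2, with a median of 0.179 and 0.166 CPM, and 1% of them were above 1.803 and 1.66 CPM. In reverse, shGFP lacked 290 protein-coding genes (58 with a row in both tables), and 25.9% to 32.8% of them had a read in a si-control library, which was sequenced less deeply.

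Markers of other cell types were mixed. None of the 6 defining blood markers reached 1 CPM in either kind, and their sum was at most 1.54 CPM. The 6 fibroblast markers summed to 6.26 and 9.04 CPM in shGFP and 3.91 to 5.36 CPM in si-control, and the 4 endothelial markers to 14.3 to 16.3 CPM over all libraries, most of it from PECAM1. Of the 8 non-neuroendocrine markers, 3 reached 1 CPM in each kind. VIM, which encodes the intermediate filament of mesenchymal cells, had 0.861 and 1.398 CPM in shGFP and no read in si-control. In the longer lists, 3 fibroblast genes were compared and 0 were apart, no blood gene was compared, 2 of 4 endothelial genes were higher in poly(A) RNA, and 2 of 4 alveolar and airway genes were higher in total RNA. These 2 alveolar and airway genes were under 1 CPM in si-control and came into the comparison through total RNA alone, so that they had to be higher there. The longer endothelial list summed to 20.1 and 20.98 CPM against 178, 187 and 189 CPM, most of it in si-control from CLDN5, and the longer non-neuroendocrine list to 170.3 and 162 CPM against 596, 581 and 582 CPM, mostly from ANXA2 and LGALS1, which are described below.

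Neuroendocrine genes as a group leaned to poly(A) RNA. In the longer list of 29 genes, 0 of 27 compared members were higher in total RNA and 8 higher in poly(A) RNA, with a median log2 ratio of -0.29 beside 0.04 for all compared genes. DLL3, an inhibitory Notch ligand and a drug target in this cancer, was at 26.005 and 30.5 CPM in the shGFP libraries and 378, 364 and 378 CPM in the si-control libraries, a log2 ratio of -3.70. CALCA, which encodes calcitonin and its related peptide, was at 315 and 329 against 2833, 2812 and 2861 CPM (-3.14). The libraries of the kinds did not overlap for either gene. In bulk RNA, fewer cells with a transcript and less transcript per cell cannot be told apart.

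The glycolytic enzyme ENO2 had a log2 ratio of -2.15, and CALCB, the second calcitonin-related peptide gene, had -1.82. INSM1, a zinc finger factor used to diagnose neuroendocrine tumours, was at 180.1 and 211 CPM in the shGFP libraries and 607, 598 and 624 CPM in the si-control libraries (-1.64). Other classic markers differed by less than 2-fold: the granule protein gene CHGA was at 218 and 246 against 449, 450.4 and 441 CPM, and CHGB at 483 and 529 against 629, 612 and 619.9 CPM. SCG2, a granin and the listed gene with the most reads, was at 1844 and 1771 CPM in the shGFP libraries and 1525, 1519 and 1510.4 CPM in the si-control libraries. NCAM1, the adhesion molecule CD56, was at 225 and 227 against 201, 206 and 204 CPM.

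Replication-dependent histones formed the clearest protein-coding group. Of 65 such genes, 52 were compared, and 49 of these were higher in total RNA, 1 was higher in poly(A) RNA and 2 were in neither set; the background share for total RNA is 18.5%. Their median log2 ratio was 5.21, within a range of -3.08 to 8.35. Of the compared members, 25 were under 1 CPM in si-control and came into the comparison through total RNA alone, so that they had to be higher there. With no filter on low values, 51 of 60 members listed for both kinds were higher in total RNA and 1 in poly(A) RNA (median 4.82), beside 13.6% and 10.9% of all 31493 genes by that rule. H2AC15, named after its values were seen, had 24.9 and 25.1 CPM in shGFP and is not listed in the si-control table.

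The named genes show what this means in reads. H2AC14, an H2A gene at chr6:27814302-27814777, was at 309 and 304 CPM in the shGFP libraries and 0.345, 0.395 and 0.586 CPM in the si-control libraries (log2 ratio 8.35, 8.13 to 8.52 over the 6 pairs of libraries). Its divergent neighbour H2BC14, at chr6:27815022-27815489, was at 178 and 172 against 0.172, 0.282 and 0 CPM. For H4C13, an H4 gene at chr6:27873148-27873534, the levels were 161 and 149 against 0, 0.0564 and 0.195 CPM. All 3 lie in the histone cluster of chromosome 6, and in si-control each had 0 to 9 reads per library.

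The linker histone gene H1-5 was at 264 and 244 CPM in the shGFP libraries and 0.977, 1.13 and 0.716 CPM in the si-control libraries (log2 ratio 7.47). The member with the most reads, H2AC20 in the smaller cluster of chromosome 1, was at 454 and 422 against 3.85, 3.27 and 3.45 CPM. Per kilobase of genomic span, which for these intronless genes is close to transcript length, the shGFP means were 887 for H2AC20, 644 for H2AC14, 538 for H1-4, 486 for H4C5 and 401 for H4C13. On that scale no single gene dominated the group.

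Every family took part. The summed level was 21.9-fold higher in total RNA for H1, 17.9-fold for H2A, 15.9-fold for H2B, 25.9-fold for H3 and 19.9-fold for H4. By counts, 4 of 4 H1 genes, 10 of 11 H2A genes, 17 of 17 H2B genes, 8 of 8 H3 genes and 10 of 12 H4 genes were higher in total RNA.

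Some histone genes kept clear levels in poly(A) RNA. H1-2 was at 147 and 136 CPM in the shGFP libraries and 38.5, 40.4 and 35.8 CPM in the si-control libraries (1.88), H2AC6 at 76.8 and 71.9 against 33.6, 34.7 and 34.03 CPM (1.11), and H2BC12 at 149 and 139 against 53.1, 52.5 and 50.1 CPM (1.46). Together with H2AC25, at 13.9 and 12.95 against 26.3, 24.4 and 25.4 CPM, they held most of the histone reads of the si-control libraries. H4C9 alone was higher in poly(A) RNA, at 1.43 and 2.03 CPM in the shGFP libraries and 18.2, 17.8 and 19.1 CPM in the si-control libraries (-3.08); its span lies wholly within that of H2BC12 on the opposite strand, so that reads of these genes cannot be told apart where counting ignored strand.

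The promoters of these genes are shown because the group moved together while its promoter types differ. The bases are the 120 before the transcription start, from RefSeq on GRCh38.p14, written 5′ to 3′ on the gene's strand, and capitals mark any of 3 motifs on either strand. TATAAA is a TATA box. CCAAT is bound by the factor NF-Y. The octamer ATTTGCAT is bound by POU factors such as POU2F1.
H2AC14, chr6:27814778-27814897, minus strand: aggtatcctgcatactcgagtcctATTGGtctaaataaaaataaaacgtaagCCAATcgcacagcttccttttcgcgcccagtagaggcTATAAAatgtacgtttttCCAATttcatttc
H2BC14, chr6:27814902-27815021, plus strand: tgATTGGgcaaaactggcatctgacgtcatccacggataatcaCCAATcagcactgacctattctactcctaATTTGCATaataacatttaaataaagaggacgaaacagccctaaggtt
H4C13, chr6:27873535-27873654, minus strand: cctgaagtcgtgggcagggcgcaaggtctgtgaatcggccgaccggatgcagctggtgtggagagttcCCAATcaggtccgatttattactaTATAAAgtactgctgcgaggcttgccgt
H1-5, chr6:27867589-27867708, minus strand: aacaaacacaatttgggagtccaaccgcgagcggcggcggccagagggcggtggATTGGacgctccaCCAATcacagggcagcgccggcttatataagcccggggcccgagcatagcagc
H4C9, chr6:27139162-27139281, plus strand: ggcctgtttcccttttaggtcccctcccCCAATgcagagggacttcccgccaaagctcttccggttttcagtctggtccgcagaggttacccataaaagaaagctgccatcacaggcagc
H2AX, chr11:119095466-119095585, minus strand: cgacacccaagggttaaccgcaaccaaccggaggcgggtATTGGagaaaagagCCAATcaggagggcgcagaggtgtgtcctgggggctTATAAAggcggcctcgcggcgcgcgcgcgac

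In the 250 bases before the start, 25 of 60 replication-dependent histone promoters held the octamer, against 1.66% of all 27305 promoters. These were 11 of 14 H2A and 14 of 18 H2B promoters, and no H1, H3 or H4 promoter. The H2A and H2B genes are mostly divergent pairs that share the stretch between them, so these counts are not independent. TATAAA was in 66.7% of the histone promoters and 11.1% of all, and CCAAT in 83.3% and 33.04%. The levels above had the same direction in families with and without the octamer. A match is a description of the letters in this window.

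**Figure D3:**
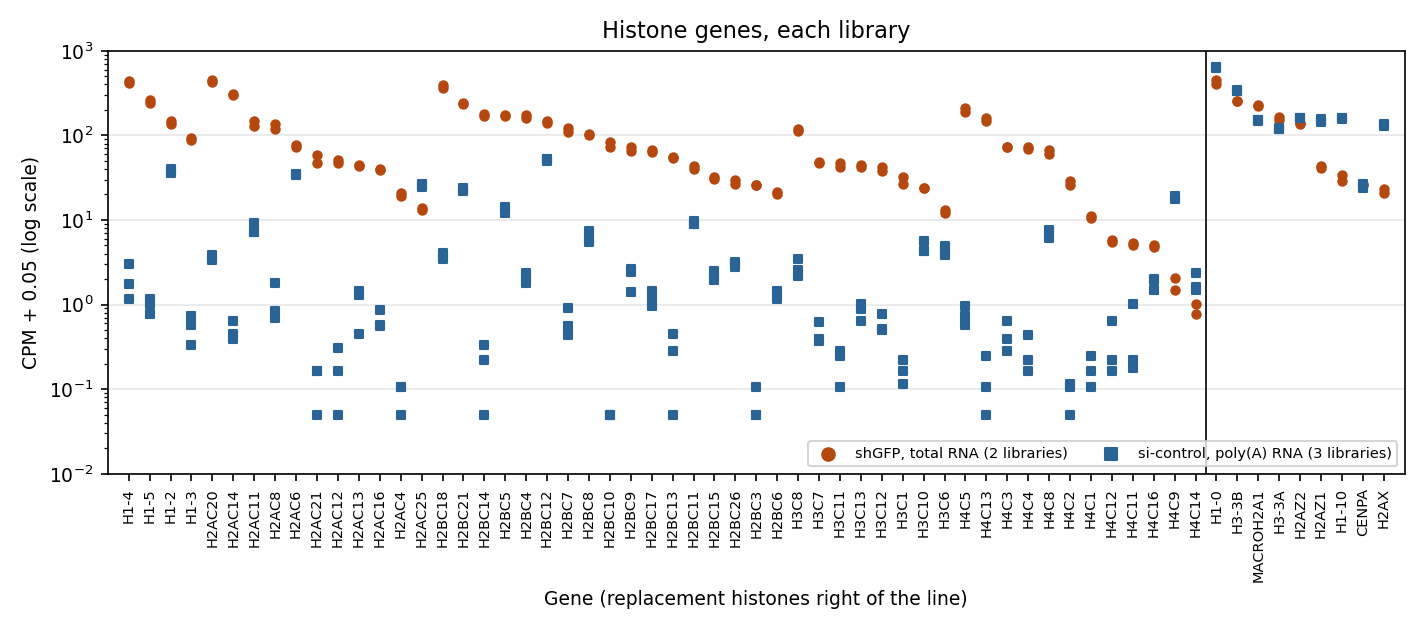
CPM plus 0.05 (vertical, log scale) of the 52 compared replication-dependent histone genes, grouped by family and ordered by level, and of 9 replacement histone genes right of the line, with 1 point per library (circles, shGFP total RNA; squares, si-control poly(A) RNA). The kinds are widely separated for most genes left of the line and lie close together or in the reverse order right of it.

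Replacement histones, most of whose mRNAs are polyadenylated and made throughout the cell cycle, showed another pattern. In this list 0 of 9 compared members were higher in total RNA and 3 higher in poly(A) RNA, with a median of -0.40. H3-3B, an H3.3 gene, was at 255 and 253 CPM in the shGFP libraries and 332, 341 and 334 CPM in the si-control libraries, and H3-3A, the other H3.3 gene, at 166 and 152 against 122, 118 and 120.2 CPM. The 3 higher in poly(A) RNA were H2AX (20.7 and 23.1 against 127, 132 and 135 CPM), which marks broken DNA when phosphorylated, H1-10 (log2 ratio -2.33) and H2AZ1 (-1.80). Like H2AC14, H2AX has a TATA box and CCAAT boxes in the stretch printed above.

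Genes of histone mRNA processing were mixed, and 4 of 12 compared members were higher in total RNA and 2 higher in poly(A) RNA. SLBP, whose protein binds the stem-loop, was at 42.8 and 39.6 CPM in the shGFP libraries and 46.2, 47.1 and 48.6 CPM in the si-control libraries. NPAT, the coactivator of histone transcription, was at 89.3 and 85.1 against 30.98, 29.4 and 27.5 CPM (1.56), and CASP8AP2, a partner in the histone locus body, had a log2 ratio of 1.78. LSM10, a subunit of the U7 particle that cuts histone pre-mRNA, was lower in total RNA, at 4.34 and 6.09 against 23.4, 28.6 and 25.4 CPM (-2.20).

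Spliceosomal snRNAs were seen almost only in total RNA. The 44 listed genes summed to 185 and 205 CPM in total RNA against 5.001, 4.398 and 4.55 CPM in poly(A) RNA, 42.002-fold apart. With no filter on low values, 28 of 33 genes listed for both kinds were higher in total RNA and none in poly(A) RNA, beside 13.6% and 10.9% of all genes, with a median of 2.51. The 19 members with a mean of 1 CPM or more all reached it through total RNA alone and had to be higher there, so their count is not given as support. RNU5D-1, a U5 gene and the member with the most reads, was at 30.4 and 34.2 CPM in the shGFP libraries and had no read in si-control, at least 544-fold higher. RNU4-1, a U4 gene, was at 8.25 and 13.1 CPM in the shGFP libraries and 0, 0 and 0.0651 CPM in the si-control libraries. RNVU1-15, a variant U1 gene, was at 17.002 and 13.6 against 0.115, 0.338 and 0.0651 CPM.

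Box C/D RNAs, box H/ACA RNAs and scaRNAs had higher sums in total RNA. The 151 box C/D genes, many of which guide methylation of ribosomal RNA, summed to 733 and 743 CPM against 25.4, 26.7 and 26.9 CPM (28.02-fold). With no filter on low values, 35 of 88 genes listed for both kinds were higher in total RNA (median 0.69). The 106 box H/ACA genes, many of which guide pseudouridylation, summed to 313 and 312 CPM against 15.5, 16.8 and 14.8 CPM (19.9-fold), and 24 of 70 were higher in total RNA (median 0.57). The 17 scaRNAs, which guide modification of snRNAs in Cajal bodies, summed to 226 and 282 CPM against 0.747, 0.507 and 0.911 CPM (352-fold), and 8 of 15 were higher in total RNA (median 1.10). By that rule no member of these 3 lists was higher in poly(A) RNA. The shares for all genes are 13.6% and 10.9%. At a mean of 1 CPM or more, only 23, 14 and 5 members remained, of which 19, 11 and 5 reached it through total RNA alone.

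SNORD3A, the U3 snoRNA that acts in the cutting of ribosomal precursor RNA, held the most reads of the C/D list, at 293 and 319 CPM in the shGFP libraries and 0.575, 0.282 and 0.3904 CPM in the si-control libraries (8.39). SNORA73B, an H/ACA RNA also called U17, was at 162 and 166 against 2.53, 3.21 and 1.95 CPM. SCARNA7 was at 170.1 and 238 CPM in shGFP with no read in si-control, at least 3435-fold higher. Members of the imprinted clusters were read as well: SNORD116-6, of the cluster lost in Prader-Willi syndrome, was at 55.6 and 59.03 against 0.632, 0.789 and 0.586 CPM, and SNORD114-13, of the cluster on chromosome 14, at 17.9 and 17.3 CPM with no read in si-control.

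The host genes of snoRNAs, whose spliced transcripts carry tails, were not set apart as a list: 5 of 31 compared members were higher in total RNA and 6 higher in poly(A) RNA, close to the shares of 18.5% and 20.7% of all compared genes. NCL, which encodes nucleolin and hosts snoRNAs in its introns, was at 1494 and 1512 CPM in the shGFP libraries and 951, 939.8 and 951 CPM in the si-control libraries. TAF1D was at 227 and 235 against 99.04, 103 and 96.4 CPM (1.21), and SNHG19 at 2.08 and 1.798 against 10.4, 11.1 and 12.4 CPM (-2.27).

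RNA polymerase III makes 7SL, vault and Y RNAs. RN7SL2, a 7SL gene on chromosome 14, was at 2374 and 2315 CPM in the shGFP libraries and 29.1, 36.1 and 40.1 CPM in the si-control libraries (6.04), and its neighbour RN7SL3 at 628 and 625 against 1.15, 0.959 and 1.37 CPM (8.56). These genes are near-identical, so their split is uncertain, but their sum shows the same order. VTRNA1-2, a vault RNA, went the other way at 0.143 and 0.499 CPM in the shGFP libraries and 1.72, 1.41 and 1.95 CPM in the si-control libraries, on 19 reads over both shGFP libraries, and it did not meet the rule without shGFP replicate 2 (-1.77) or si-control replicate 3 (-1.33). RNY1, a Y RNA, was at 1.51 and 2.23 CPM in shGFP and is not listed in the si-control table.

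Mitochondrial RNAs split by type. Human mitochondrial DNA is transcribed as long precursors from both strands, from which tRNAs are cut out between the rRNAs and mRNAs. MT-RNR1 was at 36653 and 37418 CPM in the shGFP libraries and 1077, 1088 and 1117 CPM in the si-control libraries (5.08). Of the 13 mitochondrial mRNAs, 1 was higher in total RNA and 2 were higher in poly(A) RNA, with a median of -0.44. MT-CO1, a subunit of cytochrome oxidase, took the most reads of any mRNA in both kinds, at 16790 and 17615 against 23998, 23187 and 24104 CPM.

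The exceptions were large. MT-ATP8, a subunit of ATP synthase whose reading frame overlaps that of MT-ATP6 in a shared transcript, was at 580.2 and 608 CPM in the shGFP libraries and 7.76, 8.29 and 10.7 CPM in the si-control libraries (5.98). MT-ATP6 itself was at 3379.7 and 3913 against 7182, 6845 and 7152 CPM (-0.95), less than 2-fold apart, with the si-control libraries higher. Reads in the overlap can be given to either gene or to none, and the counting rule is not given in the sources used here.

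MT-ND6, a subunit of complex I and the only mRNA gene on the light strand, was at 174 and 238 CPM in the shGFP libraries and 1475, 1425 and 1449 CPM in the si-control libraries (-2.81). MT-TP, the proline tRNA gene on the same strand, was at 21.2 and 24.3 against 78.8, 72.9 and 74.4 CPM (-1.70). Both were higher in poly(A) RNA, whose kit does not mark strand, and both lie opposite to transcribed heavy strand; the part of strand in these values was not tested. MT-ND2 was also higher in poly(A) RNA (-1.67). Of the other mitochondrial tRNA genes on that strand, MT-TY (tyrosine) went the other way, with a log2 ratio of 2.34. It came into the comparison through total RNA alone, so that it had to be higher there. MT-TQ (glutamine) was at 12.9 and 15.05 CPM and MT-TE (glutamate) at 7.999 and 8.62 CPM in shGFP. Neither MT-TQ nor MT-TE is listed in the si-control table, so they were not compared. The shGFP table lists 13 mitochondrial tRNA genes, and 3 are listed for si-control.

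Long non-coding RNAs leaned to total RNA, with 258 of 971 compared genes (26.6%) higher there and 106 (10.9%) higher in poly(A) RNA. MALAT1, a nuclear RNA of speckles whose 3′ end is a triple helix in place of a tail, was at 3988 and 4234 CPM in the shGFP libraries and 208, 214 and 206 CPM in the si-control libraries (4.29). NEAT1, the scaffold of paraspeckles, has a long form that ends like MALAT1 and a short form with a tail, and its levels overlapped at 104 and 124 against 122, 129.6 and 129 CPM. In the list of nuclear and regulatory lncRNAs, 12 of 21 compared members were higher in total RNA and 2 higher in poly(A) RNA. Of those compared, 2 were under 1 CPM in si-control. With no filter on low values, 12 of 22 were higher in total RNA and 2 in poly(A) RNA, beside 13.6% and 10.9% of all genes.

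KCNQ1OT1, the long unspliced imprinted transcript of chromosome 11, was at 64.8 and 63.96 CPM in the shGFP libraries and 4.02, 5.13 and 4.55 CPM in the si-control libraries (3.68). FTX, from the X-inactivation centre, had a log2 ratio of 2.81. The antisense genes TTN-AS1 (18.1 and 19.5 against 0.747, 0.789 and 0.651 CPM) and PITPNA-AS1 (23.3 and 20.98 against 0.4599, 0.395 and 1.37 CPM) were among the 8 lncRNAs with the largest ratios, as was NALF1-IT1, which lies in an intron of NALF1, at 10.2 and 10.2 against 0, 0 and 0.0651 CPM. Of the span of TTN-AS1, 96.8% lies opposite TTN. RMST, the host gene of the circular RNA that the series studies, was at 9.61 and 10.7 CPM in the shGFP libraries and 2.99, 3.89 and 2.798 CPM in the si-control libraries (1.51); circular molecules carry no tail, and the table does not separate them from the linear RNA.

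In the other direction, SCIRT was at 0.108 and 0.3995 CPM in the shGFP libraries and 98.2, 92.9 and 94.2 CPM in the si-control libraries (-6.99), and LINC00942 at 0.682 and 0.0666 against 62.8, 64.6 and 62.1 CPM (-6.19). MEG9, of the imprinted cluster on chromosome 14, was at 0.359 and 0.466 against 13.6, 12.3 and 11.3 CPM (-3.82). MEG3, of the same cluster, went the other way, at 3.19 and 2.497 against 0.575, 0.226 and 0.521 CPM (1.83). MEG3 was under 1 CPM in si-control, and SCIRT, LINC00942 and MEG9 were under 1 CPM in shGFP. Each of them came into the comparison through the other kind alone, so that it had to be higher there. TRIM8-DT (-3.61), LINC02604 (-3.50) and H19, the imprinted fetal RNA of chromosome 11 (148 and 159 against 398, 392 and 387 CPM, -1.35), were likewise higher in poly(A) RNA.

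Host transcripts of microRNAs are shown with the microRNAs they carry, because the hosts of several well-known families differed widely. This list was chosen after the values were seen. The mature RNAs were not measured here; each is cut from its host by Drosha and Dicer and finds its targets by the seed, bases 2 to 8, in capitals. Sequences are from RefSeq, GRCh38.p14, 5′ to 3′.
miR-181a-5p, chr1:198859108-198859130, minus strand, host MIR181A1HG: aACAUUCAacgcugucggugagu
miR-181b-5p, chr1:198858925-198858947, minus strand, host MIR181A1HG: aACAUUCAuugcugucggugggu
let-7a-5p, chr9:94175962-94175983, plus strand, host MIRLET7A1HG: uGAGGUAGuagguuguauaguu
let-7d-5p, chr9:94178841-94178862, plus strand, host MIRLET7A1HG: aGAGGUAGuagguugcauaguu
let-7f-5p, chr9:94176353-94176374, plus strand, host MIRLET7A1HG: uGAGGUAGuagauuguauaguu
miR-15a-5p, chr13:50049167-50049188, minus strand, host DLEU2: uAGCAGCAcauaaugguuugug
miR-16-5p, chr13:50049027-50049048, minus strand, host DLEU2: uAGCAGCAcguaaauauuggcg
miR-497-5p, chr17:7017979-7017999, minus strand, host MIR497HG: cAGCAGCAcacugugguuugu
miR-195-5p, chr17:7017667-7017687, minus strand, host MIR497HG: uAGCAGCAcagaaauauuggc
miR-17-5p, chr13:91350618-91350640, plus strand, host MIR17HG: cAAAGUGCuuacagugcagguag
miR-23a-3p, chr19:13836595-13836615, minus strand, host MIR23AHG: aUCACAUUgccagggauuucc
miR-27a-3p, chr19:13836447-13836467, minus strand, host MIR23AHG: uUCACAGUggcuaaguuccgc
miR-24-3p, chr19:13836289-13836310, minus strand, host MIR23AHG: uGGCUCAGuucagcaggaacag
miR-9-5p, chr15:89368032-89368054, plus strand, host MIR9-3HG: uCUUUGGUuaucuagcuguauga

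Among the hosts shown, those of 3 seed families had the largest ratios toward total RNA. The hosts were picked with the values known, and others not shown, MIR493HG (3.89) and MIR762HG (2.81), lay in the same range. MIR181A1HG, MIRLET7A1HG and MIR497HG were under 1 CPM in si-control and came into the comparison through total RNA alone, so that they had to be higher there. Of the span of MIRLET7A1HG, 70.2% lies opposite LINC02603. MIR181A1HG, which carries the seed ACAUUCA, was at 15.4 and 14.6 CPM in the shGFP libraries and 0.287, 0 and 0.1301 CPM in the si-control libraries (4.60). MIRLET7A1HG, which carries 3 members of the let-7 family with the seed GAGGUAG, was at 14.96 and 13.02 against 0.2299, 0.226 and 0.195 CPM (4.34). The seed AGCAGCA is shared by miR-15a, miR-16, miR-195 and miR-497, and both of the hosts shown for it were higher in total RNA: DLEU2 at 23.6 and 26.1 against 1.84, 3.04 and 2.73 CPM (3.06), and MIR497HG at 4.05 and 4.46 against 0.2299, 0.226 and 0.2603 CPM (2.69).

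MIR17HG, host of the growth-promoting miR-17 cluster and the host with the most reads, was at 59.4 and 55.5 CPM in the shGFP libraries and 22.2, 21.9 and 23.9 CPM in the si-control libraries (1.32). The host MIR23AHG went the other way, at 0.6098 and 0.466 against 5.46, 5.3004 and 5.99 CPM (-2.55). MIR9-3HG, host of the neural miR-9, was at 5.88 and 5.76 against 11.7, 14.1 and 11.6 CPM (-1.03) and missed the 2-fold line without si-control replicate 2 (-0.94). Over the 78 host genes with names of this form, 30 were compared, 12 were higher in total RNA and 3 in poly(A) RNA, beside 18.5% and 20.7% of all compared genes. Of those compared, 6 were under 1 CPM in si-control, and with no filter on low values 15 of 65 were higher in total RNA and 4 in poly(A) RNA, beside 13.6% and 10.9%.

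The 12 protein-coding genes with the largest ratio in each direction were named among those outside the histones and the mitochondrial genome with at least 10 CPM in the higher kind. Toward total RNA, MGAT2, an enzyme of N-glycan synthesis in the Golgi, was at 209 and 219 CPM in the shGFP libraries and 0.0575, 0.282 and 0.195 CPM in the si-control libraries (8.30). ILK, a kinase of focal adhesions, was at 32.2 and 30.6 against 0.115, 0.169 and 0.455 CPM (5.42). EMC6, a subunit of the membrane insertase of the endoplasmic reticulum, was at 30.1 and 33.99 against 0.402, 0.169 and 0.521 CPM (5.24). Each was near 0 in all si-control libraries and well above it in both shGFP libraries.

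Of the other 9 genes in this set, MIF, a cytokine that is abundant in most cell lines, was at 43.98 and 51.6 CPM in the shGFP libraries and 1.03, 2.54 and 1.82 CPM in the si-control libraries (4.39), and RANGRF at 16.2 and 21.01 against 0.115, 0.226 and 0.0651 CPM (4.91). COX20, an assembly factor of cytochrome oxidase, had a ratio of 4.61, ARL2BP 4.83, RAMAC, a partner of the cap methyltransferase, 4.03, and the zinc finger genes ZNF460 4.72, ZBTB20 4.205, ZNF593 4.16 and ZSCAN32 4.04. Several of these spans lie opposite another gene: 100% of ZNF593 lies opposite ZNF593OS, 92.9% of ZSCAN32 opposite an uncharacterized locus and 64.5% of ILK opposite TAF10, while MGAT2, EMC6 and MIF had no such overlap among the genes matched.

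Toward poly(A) RNA, the largest ratio was that of VGF, a secreted neuropeptide precursor of neuroendocrine cells, at 67.4 and 102 CPM in the shGFP libraries and 4649, 4632 and 4667 CPM in the si-control libraries (-5.77). CLDN5, a tight junction protein best known from endothelium, was at 3.26 and 3.43 against 156, 165 and 167 CPM (-5.40). ERG, also of the longer endothelial list, was higher in poly(A) RNA as well, at 0.861 and 1.298 against 4.37, 4.29 and 4.55 CPM (-1.63). The endothelial genes PECAM1, at 12.4 and 12.9 against 15.7, 15.4 and 15.1 CPM, and CDH5, at 0.6098 and 0.666 against 0.0575, 0.0564 and 0.0651 CPM, did not share that difference. HES6, a Notch pathway factor of neuroendocrine cells, was at 62.1 and 62.8 against 1441, 1465 and 1465 CPM (-4.53). For VGF, CLDN5 and HES6 every si-control library lay far above both shGFP libraries.

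GDF15, a stress-induced cytokine, was at 8.18 and 6.73 CPM in the shGFP libraries and 229, 226 and 233 CPM in the si-control libraries (-4.85). COL5A1, a fibrillar collagen, was at 3.84 and 2.797 against 95.5, 93.8 and 90.9 CPM (-4.62). SDF2L1, a partner of chaperones in the endoplasmic reticulum, was at 9.07 and 7.76 against 162, 160.2 and 158 CPM (-4.17). The imprinted gene PHLDA2 (-4.201), the neuronal vesicle gene CALY (-4.27), the pyridoxal phosphatase PDXP (-4.34), PDF (-4.19), TMEM140 (-4.23) and the epidermal gene FLG (-4.74) complete the 12, and 100% of the spans of CALY, TMEM140 and FLG lies opposite another gene.

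Rapid response genes leaned to poly(A) RNA. Immediate early genes are induced within minutes of a stimulus. Of these, 1 of 14 compared members were higher in total RNA and 11 higher in poly(A) RNA. Their median was -1.71, and the background share toward poly(A) RNA is 20.7%. The member higher in total RNA, EGR3, was under 1 CPM in si-control. It came into the comparison through total RNA alone, so that it had to be higher there. NR4A1, an orphan nuclear receptor, was at 12.9 and 14.1 CPM in the shGFP libraries and 147, 147 and 152 CPM in the si-control libraries (-3.42). EGR1, a zinc finger factor, was at 9.29 and 14.2 against 117, 112 and 117 CPM (-3.24), and FOS, a subunit of AP-1, at 12.2 and 10.9 against 50.2, 51.8 and 50.9 CPM (-2.09). DUSP1, a phosphatase of MAP kinases, differed little, at 70.9 and 71.5 against 88.2, 87.6 and 96.04 CPM.

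Integrated stress response genes, the targets of ATF4 when translation is curbed, leaned the same way, and 0 of 17 compared members were higher in total RNA and 9 higher in poly(A) RNA (median -1.29). ATF4 itself was at 533 and 499 CPM in the shGFP libraries and 653, 659 and 656 CPM in the si-control libraries, less than 2-fold apart. TRIB3, a pseudokinase that restrains the response, was at 24.7 and 27.2 against 160.4, 166 and 160.1 CPM (-2.62), and CHAC1, which degrades glutathione, at 9.36 and 10.6 against 63.5, 60.9 and 69.04 CPM (-2.63). ASNS (-0.77), DDIT3 (0.11) and SLC7A11 (0.08) stayed within 2-fold, so the members did not move as one.

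Among interferon-stimulated genes, 1 of 15 compared members were higher in total RNA and 6 higher in poly(A) RNA (median -0.63). That median was -0.98 without shGFP replicate 1, -0.35 without shGFP replicate 2, -0.19 with protein-coding reads as the denominator and -0.07 with no filter on low values. ISG15, a ubiquitin-like protein, was at 4.05 and 4.79 CPM in the shGFP libraries and 39.8, 41.5 and 42.9 CPM in the si-control libraries (-3.09), and BST2, or tetherin, at 19.7 and 19.3 against 129, 141 and 133 CPM (-2.75). MX1, an antiviral GTPase, was higher in total RNA, at 2.37 and 1.83 against 0.517, 0.507 and 0.2603 CPM. MX1 came into the comparison through total RNA alone, so that it had to be higher there.

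Cell cycle genes took more reads in total RNA as a sum, 5719.7 and 5406 CPM against 3633, 3701 and 3622 CPM, although their median was 0.10 and 5 of 25 compared members were higher in total RNA and 3 higher in poly(A) RNA. CENPF, a large kinetochore protein, was at 1429 and 1294 CPM in the shGFP libraries and 318, 325 and 313 CPM in the si-control libraries (2.09), TOP2A, the topoisomerase of dividing cells, at 1181 and 1097 against 445, 459 and 436 CPM (1.35), and MKI67, the proliferation marker, at 598 and 582 against 261, 254 and 260.4 CPM (1.19). In contrast AURKB, a mitotic kinase, was at 29.2 and 27.7 against 71.5, 79.2 and 76.3 CPM (-1.40), and CDC20, an activator of the anaphase-promoting complex, at 53.8 and 56.4 against 132, 137 and 136 CPM (-1.28). The members with the most reads set the sum, and the list had no common direction.

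Cytosolic ribosomal protein genes, whose short mRNAs share a 5′ oligopyrimidine tract, lay on both sides: 12 of 79 compared members were higher in total RNA and 27 higher in poly(A) RNA, with a median of -0.50 and a range of -2.94 to 3.79. RPL23A was at 487 and 459 CPM in the shGFP libraries and 32.9, 30.9 and 37.3 CPM in the si-control libraries (3.79). RPS9 lay at the other end, at 57.6 and 57.9 against 438, 455 and 447 CPM (-2.94), with RPS28 at 39.9 and 38.4 against 299, 299.6 and 299.96 CPM (-2.92). Ribosomal proteins are needed in equal number, yet the ratios of their mRNAs spread widely. These genes have many processed pseudogenes, so the split of their reads is uncertain.

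Mitochondrial ribosomal proteins and nuclear subunits of oxidative phosphorylation were centred near 0, with medians of 0.05 and -0.04. Of the first, 9 of 78 compared members were higher in total RNA and 10 higher in poly(A) RNA. MRPS18C was at 44.9 and 43.9 CPM in the shGFP libraries and 2.702, 2.59 and 2.21 CPM in the si-control libraries (3.90), and MRPL12 at 0.789 and 1.53 against 11.04, 8.796 and 9.76 CPM (-2.64). Of the second, 14 of 74 compared members were higher in total RNA and 13 higher in poly(A) RNA, from ATP5ME, a small subunit of ATP synthase, at 17.3 and 18.8 against 0.632, 0.733 and 0.911 CPM (3.88), to ATP5F1D, another subunit of the same complex, at 13.2 and 15.8 against 69.7, 68.4 and 72.7 CPM (-2.24).

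Very long neuronal genes leaned to total RNA, and 5 of 17 compared members were higher in total RNA and 0 higher in poly(A) RNA (median 0.62). Protein-coding genes with a span over 300 kb were close to this, with 28.1% higher in total RNA, 5.68% in poly(A) RNA and a median of 0.50. CNTNAP2, a neurexin relative, was at 131 and 136 CPM in the shGFP libraries and 23.2, 23.2 and 25.6 CPM in the si-control libraries (2.46), DLG2, a synaptic scaffold, at 15.5 and 15.3 against 5.23, 4.57 and 4.62 CPM (1.58), and DMD, which encodes dystrophin, at 63.2 and 66.96 against 30.2, 28.2 and 26.5 CPM (1.19). ROBO1, an axon guidance receptor with the most reads of the list, was at 469.95 and 484 against 380.3, 383 and 375 CPM (0.33).

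Non-neuroendocrine markers that were compared leaned to poly(A) RNA: 0 of 8 compared members were higher in total RNA and 6 higher in poly(A) RNA. With no filter on low values this was less one-sided, with 3 of 14 higher in total RNA and 6 in poly(A) RNA, and the median went from -1.33 to -0.40. LGALS1, a galectin, was at 12.3 and 10.1 CPM in the shGFP libraries and 118, 118 and 111 CPM in the si-control libraries (-3.31), and ANXA2, an annexin of the cell cortex, at 125 and 125 against 418, 405 and 413 CPM (-1.71). Among tumour suppressors and drivers, KMT2D, a histone methyltransferase, was at 43.5 and 51.9 against 202, 197 and 194 CPM (-2.04), and RB1, the retinoblastoma gene, at 18.9 and 18.05 against 8.62, 8.23 and 9.11 CPM (1.05, or 0.95 and so under the 2-fold line with median-of-ratios scaling). NFIB, a driver of metastasis in this cancer, was at 172 and 179 against 69.2, 66.8 and 62.3 CPM (1.40).

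**Figure D4:**
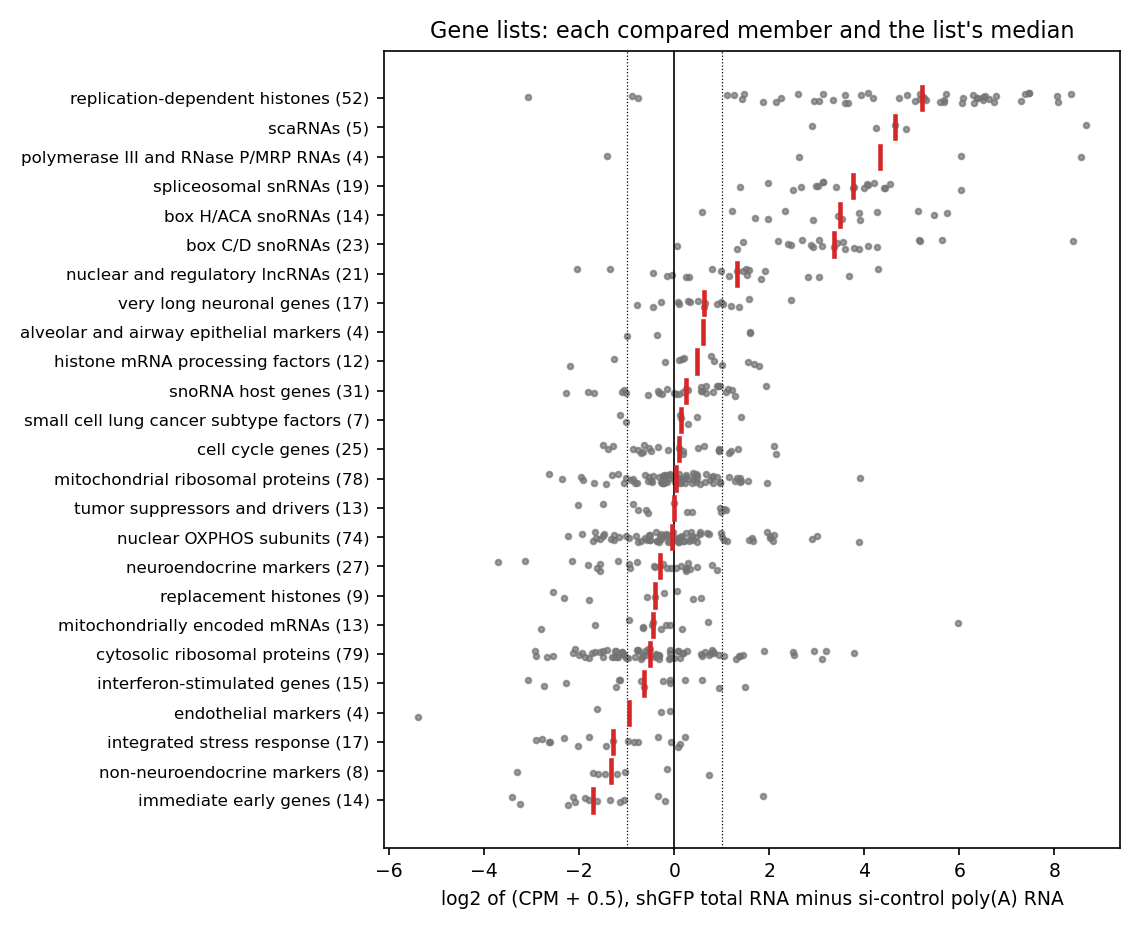
The log2 ratio of shGFP total RNA over si-control poly(A) RNA (horizontal) for each compared member (grey points) of 25 gene lists, with the number of members in brackets, the median as a red bar, and dotted lines at 2-fold. Histones and small RNAs lie right of 2-fold with few exceptions, but most of the small RNAs shown reached a mean of 1 CPM through total RNA alone; the medians of immediate early, integrated stress response and non-neuroendocrine genes lie left of it.

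The genes with the most reads also changed places between the kinds. After MT-RNR1, MT-CO1, MT-CO2 and MT-ND4, the most-read genes of total RNA included MALAT1 and HSPA8, a constitutive chaperone, at 4288 and 4173 CPM in the shGFP libraries and 1418, 1443 and 1409.95 CPM in the si-control libraries (1.57). In poly(A) RNA the actins took their place: ACTG1 was at 1367 and 1357 against 6848, 6864 and 6840.4 CPM (-2.33), and ACTB at 2317 and 2358 against 5904, 5816 and 5853 CPM (-1.33). EEF1A1, the translation elongation factor, was among the 10 most-read genes of both, at 4093 and 3810 against 6458, 6329.5 and 6441 CPM (-0.70). These are shares of reads and are not corrected for length.

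Features of the gene itself ran along with the difference. Over 12637 compared protein-coding genes without the histone list, 43.3% of genes with a genomic span up to 3 kb were higher in poly(A) RNA and 7.69% in total RNA. At spans over 300 kb the shares were 5.68% and 28.1%, and every step between moved in the same direction. The median log2 ratio went from -0.86 to 0.50. Across genes the Pearson r with the log of span was 0.30 and Spearman's rho 0.31, as a description, since genes share libraries and are not replicates.

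Promoter base composition ran the other way. A promoter window (250 bases before to 50 after the start) was matched for 10379 of these genes (82.1%). In the quintile with the lowest GC content (22.3% to 56.7%) the median log2 ratio was 0.25, and in the highest (73.7% to 94%) it was -0.41 (Pearson r -0.18). The order by span was seen on both sides of the median GC: among genes below the median GC, the median was -0.41 for spans up to 10 kb and 0.49 over 100 kb, and among the rest -0.87 and 0.26. Their part in the differences of the lists above was not tested.

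**Figure D5:**
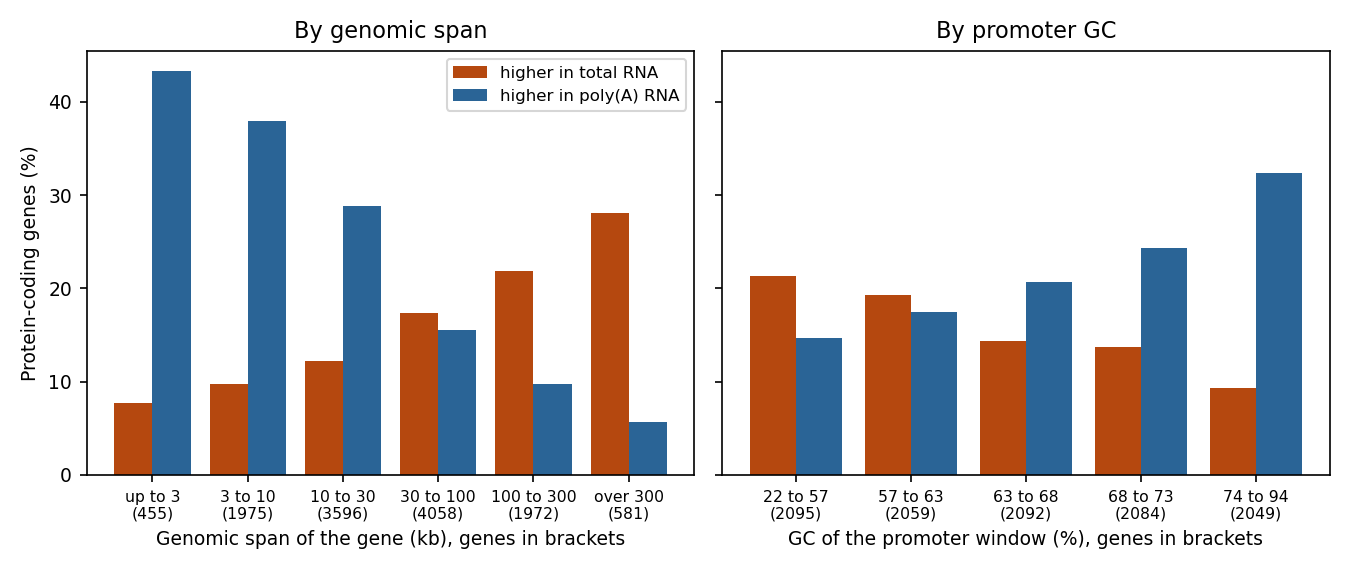
Percent of compared protein-coding genes without the histone list (vertical axis) that were higher in total RNA (first bar of each pair) or in poly(A) RNA (second bar), by genomic span in kb (left) and by GC content of the promoter window (right), with the number of genes in brackets. The order of the bars turns over between spans of 10 to 30 kb and 30 to 100 kb, and between the second and the third GC quintile.

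Overlap with a gene on the opposite strand also differed between the sets. Among genes matched to RefSeq, of 6569 protein-coding genes whose span had none, 13.99% were higher in total RNA, and of 450 with more than 50% of the span overlapped, 21.3% were. The shares higher in poly(A) RNA were 23.6% and 18.2%. Strand was kept by 1 of the kits only, and whether counting used it is not given in the sources used here.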

How the data were processed

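RNA was sequenced from control SHP77 cells as stranded total RNA libraries (shGFP, n = 2) and poly(A) libraries (si-control, n = 3). The authors deposited 1 table per kind, with a normalized signal per gene. The submitters' processing notes name cutadapt 2.5, STAR 2.5.2b, DESeq2 and hg38. The annotation, the counter and its strand setting are not given in the sources used here. Values were whole multiples of 1 step per library (100% within 0.05 reads), and whole reads were recovered. Non-human features (55 and 38) and pseudoautosomal Y copies (7 and 11) were left out, which kept 41686 and 34742 genes; 74.9% and 77.03% had a symbol. The 12 knockdown columns were not used.

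Reads were scaled to CPM without MT-RNR2 (Python 3.11.15, pandas 2.3.3). Classes, spans and sequences came from RefSeq (GRCh38.p14). No test was made between the kinds, because library kind, treatment and kit change together between the groups. Named genes were the most-read member and up to 4 per direction of each of 30 lists, the 12 protein-coding genes and 8 lncRNAs with the largest ratio per direction (at least 10 CPM in the higher kind), and the 10 most-read genes per kind; some are not reported here. Further list members are given as examples. The members and lists were chosen with earlier results of these data known.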

Additional observations from a re-analysis of the deposited data

Results flagged for a closer look

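Reads on non-human features, which no comparison uses, were found in 3 of the 5 control libraries: 18 reads in shGFP replicate 1, 44 in shGFP replicate 2 and 8 in si-control replicate 1, each above the 3 reads that a count of 0 allows. The other si-control libraries had 0. Groups of 2 and 3 libraries are too small for the check of single libraries that stand apart, which was not run.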

How the results depend on the processing

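The counts of genes apart (2852 toward total RNA and 3195 toward poly(A) RNA) stayed within 1.5 times except with a 4-fold rule (568 and 821) and, toward total RNA, with no filter on low values (4288). Leaving out each library gave 2792 to 2961 and 3137 to 3257. Median-of-ratios scaling moved the median of all genes by -0.11, and with it the medians of neuroendocrine markers (-0.40), snRNAs (3.64) and cytosolic ribosomal proteins (-0.61).

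The histone median was 5.75 and 4.69 with 0.1 and 1 CPM added and 4.82 with no filter. The snRNA median was 5.12 and 3.02 with 0.1 and 1 CPM added, 2.51 with no filter, 4.42 at 5 CPM and 3.65 with genes of 1 table taken as 0 in the other; that of neuroendocrine markers was -0.35 at 5 CPM. Leaving out each library gave 3.52 to 3.801 for snRNAs and -0.36 to -0.28 for neuroendocrine markers.

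Small medians changed sign: tumour suppressors and drivers (0.0312) and nuclear OXPHOS subunits (0.00458) with protein-coding reads as the denominator, mitochondrial ribosomal proteins (-0.0741) and cell cycle genes (-0.00134) with median-of-ratios scaling, and, over the libraries left out, alveolar and airway markers (-0.512 to 0.705) and tumour suppressors and drivers (-0.0797 to 0.0539). The cause was not tested. No named gene that was apart changed sign. Of 172 such genes, 167 and 170 still met the rule under the 2 other scalings.

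With MT-RNR2 in the denominator, the shGFP shares were 2.19% for MT-RNR1, 4.04% for mitochondrial mRNAs, 0.183% for 7SL, 0.303% for histones, 0.0118% for snRNAs, 0.0772% for snoRNAs and scaRNAs, 0.896% for lncRNAs and 48.5% for other protein-coding genes, and the si-control shares 0.898% for lncRNAs and 83.4% for other protein-coding genes. No paired analysis was possible because no result comes from a test. Lower depth of si-control limits genes near 0.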

Other observations

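Some genes were read in 1 kind only. A gene that the other table does not list is counted here as having no read there, which applies to all but 3728 of the genes of total RNA and 411 of those of poly(A) RNA. In total, 13031 genes had a read in a shGFP library and none in si-control, and 225 of these reached 1 CPM; together they held 2760.2 CPM. In reverse there were 1998 genes, of which 37 reached 1 CPM, with 284 CPM in sum. The shGFP libraries were deeper, which alone adds genes with a single read. By this count, genes at 1 CPM or more that only total RNA held included 8 mitochondrial tRNA genes, 8 snoRNA or scaRNA genes, 6 snRNA genes and 4 histone genes, and also 103 other protein-coding genes.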
